A study of Mus musculus with 12 samples.

Results

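The respiratory chain of mitochondria is built from 5 enzyme complexes, and the genes described here are the nuclear-encoded subunits of those complexes that the array measures. Members were taken by symbol: probe sets with 1 gene symbol that starts with Ndufa, Ndufb, Ndufc, Ndufs, Ndufv, Uqcr, Cox4 to Cox8 or Atp5, or that is Sdha, Sdhb, Sdhc, Sdhd or Cyc1, with the Ndufaf assembly factors left out and the brightest probe set kept for each gene. This gave 81 of the 17097 genes on the array, read by 140 probe sets: 33 of complex I, 4 of complex II, 8 of complex III, 19 of complex IV and 17 of complex V. The rule uses no measured value other than brightness.

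Kainic acid (KA), an agonist of the kainate class of glutamate receptors that provokes status epilepticus, was injected into the amygdala of mice, and the hippocampus on the injected side was profiled on 12 Affymetrix Mouse MG-430 PM arrays. There were 3 arrays in each of 4 groups: vehicle controls titled 8 h, KA titled 8 h, vehicle controls at 14 d and KA at 14 d. KA mice received 0.3 µg KA in 0.2 µl phosphate-buffered saline and, 40 min later, lorazepam at 6 mg/kg into the peritoneum to limit the seizures. Control mice received 0.2 µl of vehicle at the same site, and whether lorazepam followed is not given for them. All groups share the brain surgery and the amplification of 5 ng total RNA over 22 cycles. The labels give no genotype, strain, age or sex, and do not say whether an array holds 1 animal, so the p-values measure the spread between arrays.

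Complexes I, III and IV pass electrons from NADH, by way of ubiquinone and cytochrome c, to oxygen and pump protons out of the matrix as they do so. Complex II feeds electrons from succinate into the same pool without pumping protons, and complex V, the ATP synthase, lets protons flow back through a rotating ring and makes ATP. Mitochondrial DNA encodes a few of the subunits, and those are not members here. Neurons depend on this chain to restore ion gradients after firing, and fast-spiking inhibitory neurons are known for a particularly high density of mitochondria.

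Values are log2 intensities normalized by the authors, in which 1 unit is a 2-fold difference; a difference is KA minus control unless stated, and ± is a standard error for differences. A gene was called when its adjusted p in the limma fit over all 13853 genes that passed a filter on low values was under 0.05, and only called genes are said to rise or fall. Of the 81 members, 80 were tested and 79 lay above the background of all 12 arrays. The exceptions were Cox7b2, which was above it on 0 arrays and was not tested, and Cox7a1, which was above it on 11. As a whole the members were bright: 28 averaged above 10 and 6 below 6. Arrays of a group correlated at 0.989 to 0.997 over all probe sets other than the array controls.

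Several features of the arrays stood beside the comparisons. Xist, the RNA that coats the inactive X chromosome of female cells, read 7.39 to 8.71 on the 3 KA arrays titled 8 h and 4.19 to 4.67 on the other 9. The Y-linked Eif2s3y read 5.57 to 6.83 on those 3 arrays and 7.46 to 8.09 on the other 9, so that Xist and Y-linked RNA were both present in the KA group at 8 h. Sex makeup and KA at 8 h cannot be told apart. Among the arrays titled 8 h, a separate time entry runs from 8 to 10 h in controls but from 11 to 13 h in KA. The third arrays of the 4 groups deviated together from their group means over all genes tested, with pairwise correlations of 0.401 to 0.526. Of the markers on the array, 12 of 12 for neurons, 9 of 10 for pyramidal cells and 6 of 7 for dentate granule cells passed the filter on low values. So did 7 of 7 for thalamus, 6 of 7 for cortex and amygdala and 7 of 9 for skeletal muscle. Passing the filter therefore does not tell hippocampus from other tissue. All of 8 choroid plexus markers passed as well, with a summed intensity of 3322 to 5523 on 11 arrays and 956 on KA 8 h replicate 3.

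At 8 h most respiratory chain genes read slightly lower after KA. Of the 80 members tested, 5 fell and 0 rose, where 17.5% of all genes tested were called at 8 h and 9.55% fell. Those that fell were 4 subunits of complex I, Ndufv1, Ndufb7, Ndufa11 and Ndufb4, and Atp5g2 of the ATP synthase. The differences were small and ran mostly one way: 74 of 80 members were lower in KA, against 7488 of all 13853 genes tested. Their median was -0.12 against -0.02 over all genes tested, with a range from -0.35 to 0.24. In 34 of 80 members the 3 KA arrays and the 3 control arrays did not overlap, which was so for 33.8% of all genes tested. At an unadjusted p under 0.05 the fit gave 16 of 80 members, against 29% of all genes tested. In RNA from whole tissue, fewer cells of a type and less RNA per cell cannot be told apart.

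**Figure D1:**
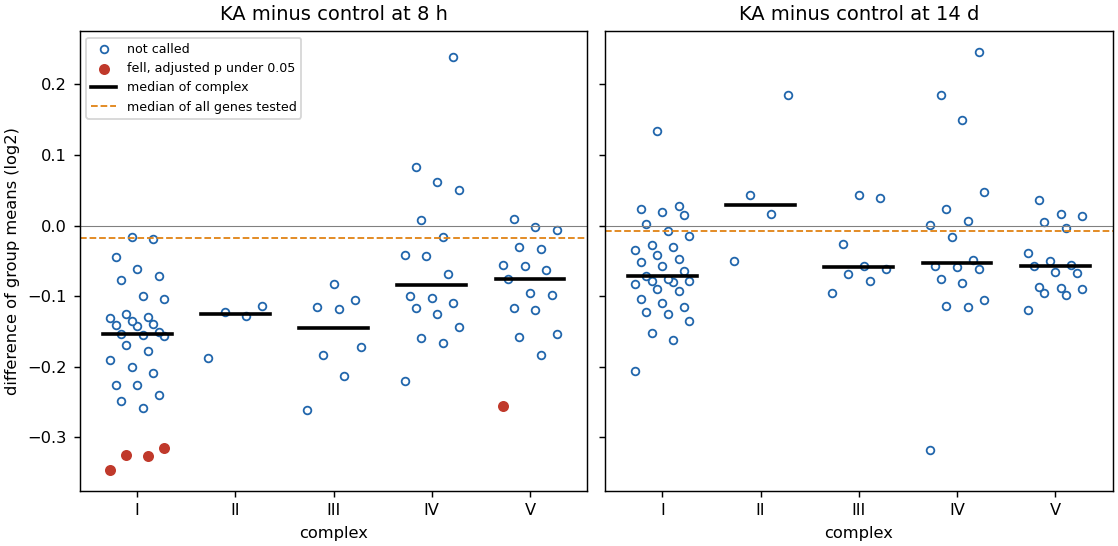
Difference of group means (log2, KA minus control) for each of the 80 members tested, by complex, at 8 h (left) and 14 d (right); filled points are members called by limma, black bars the median of a complex and the dashed line the median of all genes tested. At 8 h the 33 complex I points all lie below 0 and 4 of them are filled; at 14 d no point is filled.

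Ndufv1 encodes the core subunit of complex I that binds NADH and the flavin which takes up its electrons. It read 10.79, 10.76 and 10.74 in the controls and 10.51, 10.31 and 10.53 after KA at 8 h. The groups did not overlap, KA replicate 2 was the lowest array, and the mean fell by 19.6% (-0.32 ± 0.08, adjusted p = 0.0142). Its dimmer probe set gave -0.12.

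Ndufb7, Ndufb4 and Ndufa11 encode accessory subunits of complex I, which surround the catalytic core and are needed for its assembly and stability. Ndufb7 read 9.47, 9.23 and 9.28 in the controls and 8.91, 9.07 and 9.03 after KA (-0.33 ± 0.09, adjusted p = 0.0172). Ndufb4 read 8.45, 8.27 and 8.31 in the controls and 7.85, 7.98 and 8.16 after KA (-0.35 ± 0.10, adjusted p = 0.0232), the largest fall among the members. In both genes all KA arrays lay below all control arrays, with control replicate 1 the highest and KA replicate 1 the lowest. Ndufa11 read 9.04, 8.93 and 8.92 and 8.53, 8.76 and 8.62 (-0.33 ± 0.09, adjusted p = 0.0199). Here too the groups were apart, but its other probe set, at a mean of 5.65, gave 0.06, and with the mean of both probe sets the call was lost (-0.13, adjusted p = 0.361).

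Atp5g2 is 1 of the 3 genes, with Atp5g1 and Atp5g3, that encode the same mature subunit c, the building block of the rotating ring of the ATP synthase. Atp5g2 read 8.50, 8.45 and 8.46 in the controls and 8.14, 8.26 and 8.24 after KA and fell by 16.2% (-0.26 ± 0.08, adjusted p = 0.0282). Atp5g1 read 8.92, 8.81 and 8.88 and 8.76, 9.02 and 8.64, with overlapping groups and a difference of -0.06 (95% interval -0.34 to 0.21, adjusted p = 0.822). Atp5g3 read 10.40, 10.50 and 10.50 and 10.34, 10.46 and 10.50, also overlapping, with a difference of -0.03 (95% interval -0.21 to 0.14, adjusted p = 0.863). The interval of Atp5g2, -0.42 to -0.10, overlaps both, and the difference between the 3 genes was not tested.

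Each of the 5 calls was lost when at least 1 array was left out. Without KA 8 h replicate 1 the count of called members was 1, without control 8 h replicate 1 it was 2, and without control 8 h replicate 3 it was 3. Ndufv1 lost its call in 1 of 24 alternatives, without KA 8 h replicate 2 (adjusted p = 0.0640). Ndufb7 lost it in 2, Ndufb4 in 4, Ndufa11 in 5 and Atp5g2 in 7, with an adjusted p of at most 0.0873, 0.113, 0.361 and 0.115 and no change of sign.

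**Figure D2:**
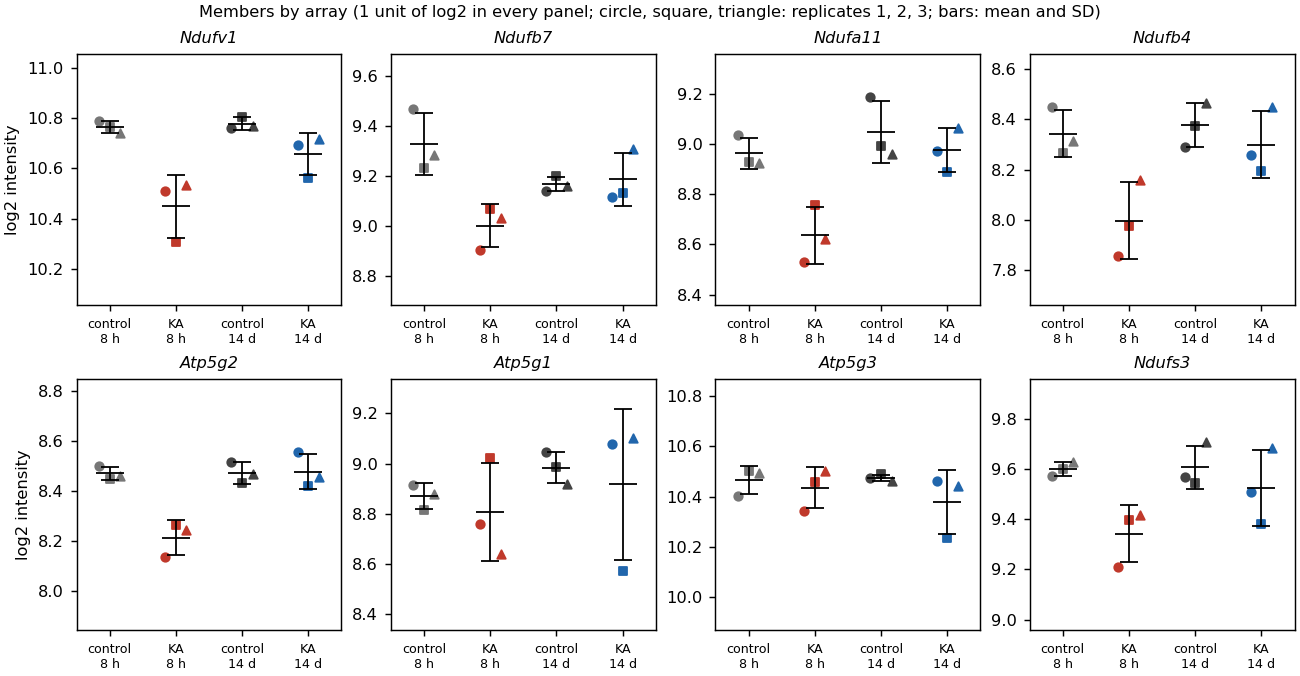
Log2 intensity of the 5 members that fell at 8 h, of the other c-ring genes Atp5g1 and Atp5g3, and of Ndufs3, on each of the 12 arrays; symbols mark replicates, bars the mean and SD of 3 arrays, and every panel spans 1 log2 unit. The KA 8 h arrays lie below all 8 h controls for the 5 called members and Ndufs3, and overlap them for Atp5g1 and Atp5g3.

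The 120 bases before the annotated start of each gene that fell, and of the other c-ring genes, show where they hold letters of the factors best known from respiratory chain promoters. These factors are NRF1 (nuclear respiratory factor), GABPA (an ETS-family factor) and YY1. Sequences are from RefSeq on GRCm38.p6, 5′ to 3′ on the strand of the gene, and capitals mark matches on either strand to the NRF1 motif or to CCGGAAG, the GABPA motif. Atp5g2 is at chr15:102671048-102671167 (minus strand), Atp5g1 at chr11:96075632-96075751 (minus) and Atp5g3 at chr2:73911327-73911446 (minus). Ndufa11 is at chr17:56717642-56717761 (plus), Ndufb4 at chr16:37654369-37654488 (minus), Ndufb7 at chr8:83566638-83566757 (plus) and Ndufv1 at chr19:4012756-4012875 (minus).
Atp5g2: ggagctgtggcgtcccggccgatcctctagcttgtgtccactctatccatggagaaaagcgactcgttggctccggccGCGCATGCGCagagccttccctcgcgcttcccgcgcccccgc
Atp5g1: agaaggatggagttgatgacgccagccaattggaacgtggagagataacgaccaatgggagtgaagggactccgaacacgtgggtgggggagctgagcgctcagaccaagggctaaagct
Atp5g3: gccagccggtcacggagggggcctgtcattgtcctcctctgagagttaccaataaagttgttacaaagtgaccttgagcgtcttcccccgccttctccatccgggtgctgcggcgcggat
Ndufa11: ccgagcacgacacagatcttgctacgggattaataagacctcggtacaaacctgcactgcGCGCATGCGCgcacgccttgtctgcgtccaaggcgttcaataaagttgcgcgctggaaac
Ndufb4: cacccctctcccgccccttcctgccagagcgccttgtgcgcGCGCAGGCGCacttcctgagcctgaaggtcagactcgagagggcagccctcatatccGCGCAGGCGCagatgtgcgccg
Ndufb7: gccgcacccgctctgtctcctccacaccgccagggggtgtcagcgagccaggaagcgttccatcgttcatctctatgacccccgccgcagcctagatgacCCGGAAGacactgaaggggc
Ndufv1: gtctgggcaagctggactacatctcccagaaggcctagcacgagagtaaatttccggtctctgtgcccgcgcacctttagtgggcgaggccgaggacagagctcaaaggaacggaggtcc

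The same 10 letters stand in Atp5g2, from position -42 counted from the start, and in Ndufa11, from position -60; they read the same on both strands and match the NRF1 motif on each. Ndufb4 holds the NRF1 motif at -79 and -22 in the stretch shown and again at -191. Ndufb7 holds the GABPA letters at -20. No match to the 3 motifs stands in the Ndufv1 window, or in that of Atp5g1, and Atp5g3 has an NRF1 match only after its start, at position 13. Windows of 300 bases, from 250 before to 50 after the start, were found for 64 of the 81 members. In these, 25.0% held the NRF1 motif, 23.4% CCGGAAG and 6.25% the YY1 motif, against 5.14%, 9.90% and 0.742% of 26961 other genes, and 8.31%, 15.0% and 1.28% of the 13450 among them that are on the array. By complex, 12 of 29 windows of complex I, 3 of 3 of complex II, 2 of 4 of complex III, 3 of 13 of complex IV and 10 of 15 of complex V held any of the 3. Of the 5 members that fell, 4 did, against 30 of 64 members in all. A match of letters is not a bound site.

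Complex I had all of its 33 members lower at 8 h, with a median of -0.15, where 7488 of all 13853 genes tested were lower. Apart from Ndufv1, the core subunits, which together carry the electrons along a chain of iron-sulfur clusters to ubiquinone, were not called. The median of the 6 core members was -0.24, and that of the 27 accessory members was -0.15. Ndufs3, a core subunit of the arm that reaches into the matrix, read 9.57, 9.60 and 9.63 in the controls and 9.21, 9.40 and 9.42 after KA (-0.26 ± 0.09, adjusted p = 0.0674). Ndufs1, the largest core subunit, read 7.67, 7.90 and 7.92 and 7.51, 7.65 and 7.58 (-0.25 ± 0.10, adjusted p = 0.0964). In both genes every KA array was below every control array. Ndufv2, which partners Ndufv1, gave -0.23, Ndufs8 -0.14 and Ndufs7 -0.13. Among the accessory subunits, the lowest that were not called were Ndufb8 at -0.24 (adjusted p = 0.0804) and Ndufc1 at -0.23, and the highest was Ndufa12 at -0.02. The 2 members on the X chromosome, Ndufa1 and Ndufb11, gave -0.07 (adjusted p = 0.773) and -0.14 (adjusted p = 0.356). The probe set kept for Ndufs5-ps (-0.15) is annotated to a pseudogene and may read Ndufs5 itself.

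Most complex I members were lower under each of the 3 scalings. With cyclic loess in place of the deposited scaling, 30 of 33 complex I members were lower with a median of -0.10, and 64 of 80 members in all with a median of -0.07. With each array centred on its median the numbers were 33 of 33 and 76 of 80, with medians of -0.17 and -0.14. Without KA 8 h replicate 1 they were 30 of 33 and 66 of 80, with medians of -0.12 and -0.09.

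With the replicate number as a block, 7 members were called at 8 h, the same 5 and 2 more. The labels state no pairing, and it was taken from all genes tested. Over the members alone, same-numbered 8 h arrays deviated together for replicates 1 and 3 (correlations of 0.257 and 0.403) and oppositely for replicate 2 (-0.297). The 2 further members called with the block were Ndufs3 (adjusted p = 0.0290) and Cox7a2l (adjusted p = 0.0451). Cox7a2l encodes SCAF1, a factor that joins complexes III and IV into supercomplexes. It read 10.45, 10.35 and 10.36 in the controls and 10.10, 10.18 and 10.22 after KA, apart in every array, and without the block was not called (-0.22 ± 0.08, adjusted p = 0.0589).

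Complexes II and III had 0 members called at 8 h, and all 4 and all 8 were lower. Sdha, the flavoprotein that oxidises succinate, read 10.64, 10.54 and 10.61 in the controls and 10.37, 10.52 and 10.52 after KA (-0.13, adjusted p = 0.383). Sdhb, its iron-sulfur partner, read 9.53, 9.57 and 9.60 and 9.38, 9.50 and 9.45 (-0.12, adjusted p = 0.383). The arrays of both genes were apart, and neither was called. The other probe sets of Sdha gave -0.04, -0.08 and -0.01, the first of them nearly as bright (a mean of 10.21 against 10.51). The membrane anchors Sdhc and Sdhd gave -0.19 and -0.11, with overlapping groups. In complex III, the core subunit Uqcrc2 read 10.93, 10.86 and 10.83 and 10.55, 10.72 and 10.70 (-0.21, adjusted p = 0.0779), again apart. Its dimmer probe set gave -0.06. The lowest difference of the complex was that of Uqcrb, -0.26, where control replicate 1 stood alone at 8.02 and the other controls lay among or near the KA arrays. The catalytic subunits, the Rieske protein Uqcrfs1 and cytochrome c1 (Cyc1), gave -0.08 (adjusted p = 0.704) and -0.17 (adjusted p = 0.312). Uqcrfs1 was the member of complex III nearest to 0.

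Complex IV, cytochrome c oxidase, had 0 of 18 tested members called at 8 h and a median of -0.08, with 13 lower. Cox4i1, its largest nuclear subunit, read 10.51, 10.51 and 10.62 in the controls and 10.49, 10.43 and 10.50 after KA (-0.07, adjusted p = 0.696). Cox5a gave -0.02 and Cox6a1 0.01, with 95% intervals of -0.31 to 0.28 and -0.20 to 0.22. Among the other widely expressed subunits, the differences were -0.17 for Cox6b1, -0.16 for Ndufa4, -0.13 for Cox5b, -0.12 for Cox8a, -0.10 for Cox6c and -0.04 for Cox7a2. Ndufa4, once assigned to complex I and now to complex IV, was apart between the groups, at 10.30, 10.24 and 10.32 in the controls and 10.06, 10.18 and 10.14 after KA (adjusted p = 0.202).

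Subunits of complex IV with forms for particular tissues were dim in this hippocampus, and none was called. These forms replace a common subunit in muscle (Cox6a2, Cox7a1, Cox8b), testis (Cox6b2, Cox7b2, Cox8c), lung (Cox4i2) or pericytes (Ndufa4l2). Cox6a2, known in brain from parvalbumin interneurons, read 6.63, 6.61 and 6.75 in the 8 h controls and 6.58, 6.57 and 6.54 after KA (-0.10, adjusted p = 0.641). The 8 h arrays of Cox6a2 were apart by a narrow margin. Cox7b2 read 3.41 to 3.59 on the 12 arrays, below the GC-rich background probe sets of every array (4.04 to 4.60), and has no measured level. Cox8b scattered the most: it read 6.69, 5.94 and 6.11 in the 8 h controls, 6.61, 7.02 and 5.82 after KA (0.24 ± 0.24, adjusted p = 0.594), 6.64, 6.32 and 6.11 in the 14 d controls and 6.07, 6.05 and 6.00 after KA at 14 d (-0.32 ± 0.24, adjusted p = 0.665). Its lowest array, KA 8 h replicate 3, was also the array on which the 8 choroid plexus markers summed to 956. Its highest, KA 8 h replicate 2, summed to 5253, and control 14 d replicate 1, with Cox8b at 6.64, to 5523. KA 8 h replicate 1 and KA 14 d replicate 3 had like sums, 4082 and 4159, with Cox8b at 6.61 and 6.00. The part of choroid plexus in the result was not tested. Cox7a1 gave 0.05, Cox6b2 0.06, Cox4i2 0.08, Cox8c -0.14 and Ndufa4l2 -0.11 at 8 h. The skeletal muscle list had 0 of 7 tested markers called at 8 h and at 14 d.

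**Figure D3:**
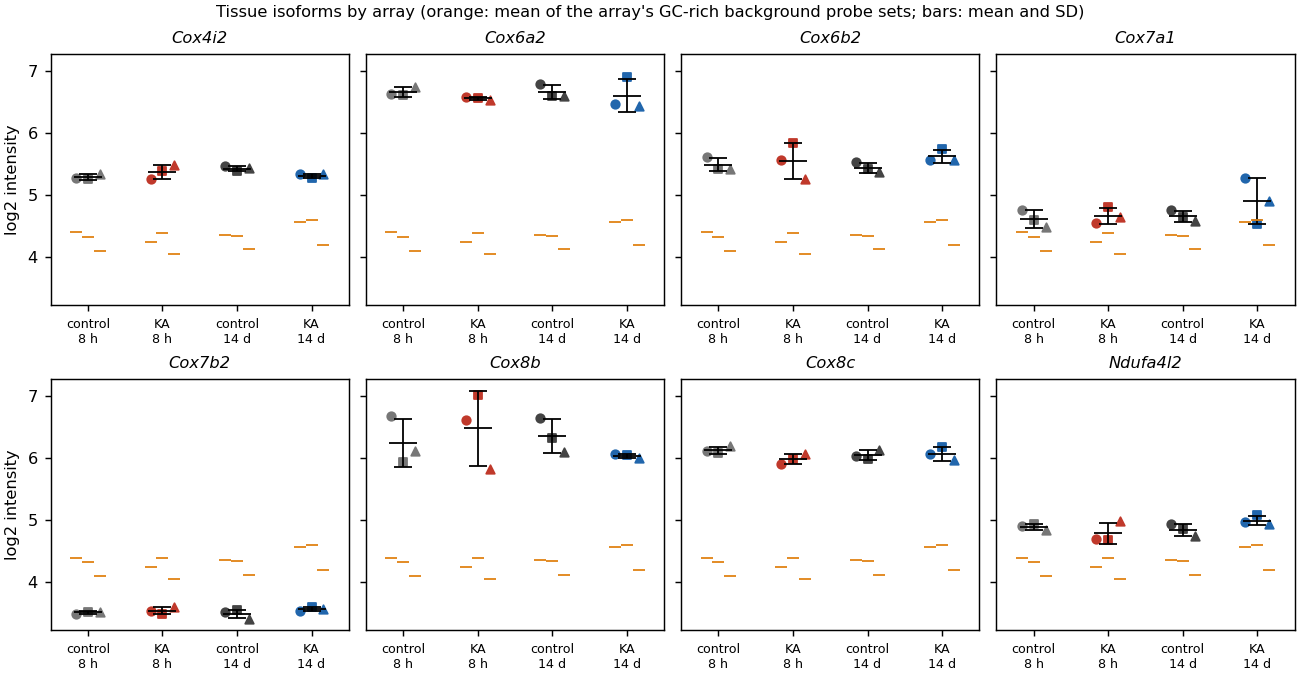
Log2 intensity of the 8 tissue isoforms of complex IV on each array, with the mean and SD of 3 arrays; short orange lines give the mean of each array's GC-rich background probe sets. Cox7b2 lies below the orange lines on all 12 arrays, and Cox8b spreads from 5.82 to 7.02 within the KA 8 h group.

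In the ATP synthase, Atp5g2 was the member that fell, and 16 of 17 were lower with a median of -0.08. The catalytic head had the median nearest to 0, -0.02. Atp5b, the subunit that makes ATP, read 9.71, 9.84 and 9.88 in the controls and 9.74, 9.82 and 9.87 after KA (-0.00, 95% interval -0.20 to 0.20). Its partner Atp5a1 gave -0.03 (95% interval -0.22 to 0.16). The 4 subunits of the peripheral stalk, which holds the head still while the ring turns, had a median of -0.14, and the 3 of the central stalk, the turning shaft, -0.06. Apart from the c ring, the lowest were Atp5k (-0.18, adjusted p = 0.129), a small membrane subunit, and Atp5j (-0.16) and Atp5o (-0.15) of the peripheral stalk. Atp5d of the central stalk was the highest, at 0.01.

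Array by array, the members as a set were lowest on KA 8 h replicate 1. The median deviation of the 80 members from their own means over the 12 arrays was 0.01, 0.01 and 0.05 on the 8 h controls and -0.17, -0.04 and -0.08 on the KA arrays. All 3 KA arrays were below all 3 controls, and KA replicate 2 was nearest to them. KA 8 h replicate 1 also had the lowest actin value, 3' minus 5', of the arrays titled 8 h (-0.35). Its Gapdh value of the same kind (-0.10) lay among those of the other arrays titled 8 h (-0.15 to 0.06). At 14 d the same medians were 0.06, 0.05 and 0.06 in the controls and 0.02, -0.12 and 0.13 after KA. There the KA arrays spread on both sides of the controls. Summed as linear intensity, the members came to 69900 to 72580 in the 8 h controls and 61910 to 67480 after KA, and to 72180 to 72360 in the 14 d controls and 63500 to 74370 after KA. Pooled over the 4 groups, the SD of the members' median between arrays of a group was 0.07. The 14 d KA arrays spread the most and the 14 d controls the least.

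**Figure D4:**
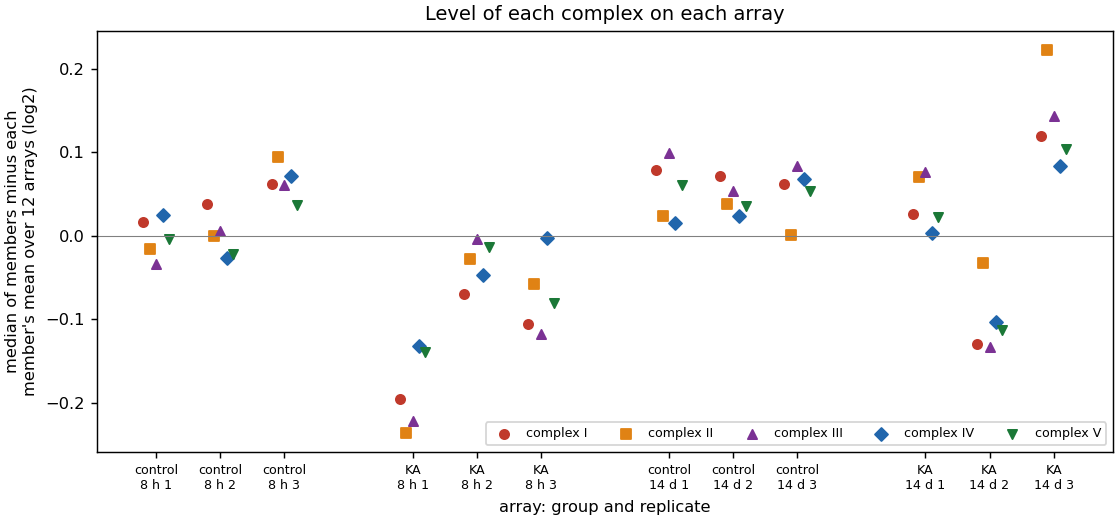
Median deviation of the members of each complex from their own mean over the 12 arrays (log2), for every array; the colour and shape of a point give the complex. On KA 8 h replicate 1 the 5 complexes lie between -0.24 and -0.13, and on the 3 KA arrays at 14 d they lie on both sides of 0.

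At 14 d no member differed by the test: 0 of 80 were called, where 2.56% of all genes tested were, and 1 had an unadjusted p under 0.05, against 12.6% of all genes tested. With array weights, an alternative that lets each array count by its own spread, 2 were called at 14 d, 1 higher and 1 lower. The median difference was -0.06 against -0.01 over all genes, and 58 of 80 were lower, against 7245 of all 13853 genes tested. In 9 of 80 the groups did not overlap, against 16.5% of all genes. The 95% interval lay within 0.5 log2 units of 0 for 78 of 80 members at 14 d, and for 75 of 80 at 8 h. Even the small median rested on KA 14 d replicate 2: without it 38 of 80 were lower and the median was 0.01. That array had the highest background of the 12 (4.60). KA 14 d replicate 1 had nearly the same background (4.56), with a median deviation of the members of 0.02. Replicate 2 also had the lowest value of the actin control probe sets, 3' minus 5' (-0.52). In this measure of RNA quality a higher value, not a lower one, marks loss of the 5' end. Its Gapdh value of the same kind (-0.08) lay among those of the other 14 d arrays (-0.17 to -0.04). The part of these in the result was not tested. With cyclic loess 38 of 80 were lower as well, with a median of 0.00.

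The member with that unadjusted p was Ndufb10, an accessory subunit of the membrane arm of complex I. It read 9.09, 9.00 and 8.99 in the 14 d controls and 8.86, 8.72 and 8.88 after KA, apart between groups (-0.21 ± 0.08, adjusted p = 0.293). The 5 members that fell at 8 h gave, at 14 d, -0.12 (Ndufv1), 0.02 (Ndufb7), -0.07 (Ndufa11), -0.08 (Ndufb4) and 0.01 (Atp5g2), with adjusted p from 0.619 to 0.988. Ndufv1 was the only one of the 5 whose 14 d groups were apart, at 10.76, 10.81 and 10.77 in the controls and 10.69, 10.56 and 10.72 after KA.

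By complex the medians at 14 d were -0.07 for complex I, 0.03 for II, -0.06 for III, -0.05 for IV and -0.06 for V; with cyclic loess that of complex I was -0.02. The highest and lowest values were Ndufc2 (0.13) in complex I, Sdhd (0.19) and Sdha (-0.05) in II, Uqcr11 (0.04) and Uqcrc2 (-0.09) in III, Cox7a1 (0.25) and Cox8b in IV, and Atp5d (0.04) and Atp5a1 (-0.12) in V. For Cox7a1 and Sdhd a single KA array carried the value: KA 14 d replicate 1 at 5.27 for Cox7a1 and replicate 3 at 5.01 for Sdhd, both near background. The further subunits named for 8 h gave -0.14 (Ndufs1), 0.04 (Sdhb), -0.03 (Uqcrfs1), -0.06 (Cyc1), -0.12 (Cox4i1), 0.01 (Cox5a), 0.05 (Cox6a1) and -0.09 (Atp5b). The common subunits of complex IV gave -0.06 (Cox5b), -0.10 (Cox6c), -0.06 (Cox7a2), -0.08 (Cox7a2l), -0.02 (Cox8a) and -0.05 (Ndufa4). Of the isoforms, Cox4i2 gave -0.11, Cox6b2 0.19, Cox6a2 -0.06 and Ndufa4l2 0.15, and the other c-ring genes Atp5g1 and Atp5g3 gave -0.07 and -0.10.

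Whether the effect of KA differed between the times was tested as the difference of the changes, 14 d minus 8 h. No member was called (0 of 80, against 5.52% of all genes tested), and 2 had an unadjusted p under 0.05, against 17.8% of all genes tested. These were Ndufb7 (0.34 ± 0.12, adjusted p = 0.135) and Atp5g2 (0.26 ± 0.11, adjusted p = 0.199). The median was 0.08 against 0.02 over all genes tested, and 65 of 80 were positive, against 7511 of all 13853 genes tested. So the calls at 8 h and their absence at 14 d do not by themselves show that the times differ. The lowest and highest in each complex, besides Ndufb7 and Atp5g2, were Ndufb10 (-0.10) in complex I, Sdha (0.08) and Sdhd (0.30) in II, Uqcr10 (0.04) and Uqcrb (0.30) in III, Cox8b (-0.56) and Ndufa4l2 (0.26) in IV, and Atp5a1 (-0.09) in V.

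The vehicle controls, taken at different times after injection, had 0 of 80 members called between 14 d and 8 h, where 1.8% of all genes tested were. An unadjusted p under 0.05 was seen for 8 of 80 members, against 14.8% of all genes tested, and the median was 0.03. In 31 of 80 members the control groups did not overlap, against 25.1% of all genes. The highest and lowest in each complex were Ndufa7 (0.27, adjusted p = 0.175) and Ndufv2 (-0.19) in complex I, Sdhc (0.29) and Sdhd (-0.10) in II, Uqcr10 (0.16) and Uqcrb (-0.37) in III, Cox4i1 (0.15) and Cox8c (-0.08) in IV, and Atp5e (0.24, adjusted p = 0.172) and Atp5md (-0.10) in V. Atp5b read 10.06, 9.98 and 10.05 in the 14 d controls, above its 8 h controls on every array (0.22, adjusted p = 0.283). The actin value, 3' minus 5', lay between -0.35 and -0.27 on the 6 arrays titled 8 h and between -0.52 and -0.41 on the 6 at 14 d, and its part was not tested.

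Genes that build the complexes or feed them were taken from further lists. Beside each list stand the shares over all genes tested: at 8 h 17.5% were called and 9.55% fell, and 1097 of 13853 rose. At 8 h, 4 of 45 assembly factors fell and 0 rose, with a median of -0.12. Sdhaf4, which helps to mature the flavoprotein of complex II, read 6.31, 6.18 and 6.08 in the controls and 5.45, 5.76 and 5.47 after KA and fell by 35.4% (-0.63 ± 0.09, adjusted p = 1.90e-04). Coa3, an early factor of complex IV assembly, read 8.90, 9.03 and 9.17 and 8.42, 8.66 and 8.61 and fell by 27.9% (-0.47 ± 0.09, adjusted p = 0.00204). In both, the KA arrays were all below the controls, and the percentages were larger than those of the 5 members that fell. Sdhaf1, which serves the iron-sulfur subunit of complex II, gave -0.43 (adjusted p = 0.0324), and Pet100 was the fourth. At 14 d 0 of 45 were called.

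Of 73 mitochondrial ribosome proteins, which make the subunits encoded in mitochondrial DNA, 7 fell and 1 rose at 8 h. Over all genes tested 9.55% fell. The gene that rose was Mrps6, at 6.49, 6.60 and 6.66 in the controls and 7.78, 7.62 and 7.97 after KA, a fold of 2.30 (adjusted p = 2.15e-06); it lay far from the list's median of -0.08. Mrps33 (-0.32, adjusted p = 0.00913) and Mrpl11 (-0.33, adjusted p = 0.0127) had the smallest adjusted p among those that fell. Of 14 carriers and coenzyme Q genes, Coq8b rose (0.40, adjusted p = 0.0091). Pdss2 (-0.41, adjusted p = 0.0104), which makes the tail of coenzyme Q, Coq2 (-0.40, adjusted p = 0.0163), which attaches it, and Gpd2, a dehydrogenase that passes electrons to ubiquinone, fell. In the citric acid cycle 1 of 17 fell at 8 h, Idh3a, a subunit of the NAD-dependent isocitrate dehydrogenase (-0.30 ± 0.09, adjusted p = 0.0362).

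Of 12 carriers of adenine nucleotides, phosphate, pyruvate and protons, Slc25a3, the phosphate carrier that supplies the ATP synthase, rose. It read 10.57, 10.54 and 10.63 in the controls and 10.87, 10.98 and 10.94 after KA (0.35 ± 0.08, adjusted p = 0.00605). Slc25a12, an aspartate and glutamate carrier, fell (-0.38, adjusted p = 0.0307). Among 19 regulators of mitochondrial genes, Creb1 rose (0.33, adjusted p = 0.0426) and the deacetylase Sirt3 fell (-0.30, adjusted p = 0.0345). Nrf1, the factor of the promoter motif above, was not called (0.10, adjusted p = 0.564).

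At 8 h 1097 of all 13853 genes tested rose. In glycolysis 3 of 21 rose and 0 fell. These were the monocarboxylate carrier Slc16a1, at 6.45, 6.48 and 6.74 in the controls and 8.49, 8.27 and 8.95 after KA (adjusted p = 2.41e-07), the neuronal glucose carrier Slc2a3 (1.11, adjusted p = 7.55e-06) and Pfkfb3, which sets the pace of phosphofructokinase (0.68, adjusted p = 5.79e-05). The list's median was -0.00. Of 18 hypoxia-induced genes 3 rose and 4 fell. Hmox1, which breaks down haem, rose (1.33, adjusted p = 1.72e-05), as did the collagen hydroxylase P4ha2 (0.41, adjusted p = 0.00771). Bnip3l, a receptor for the removal of mitochondria, fell (-0.33, adjusted p = 0.0057).

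**Figure D5:**
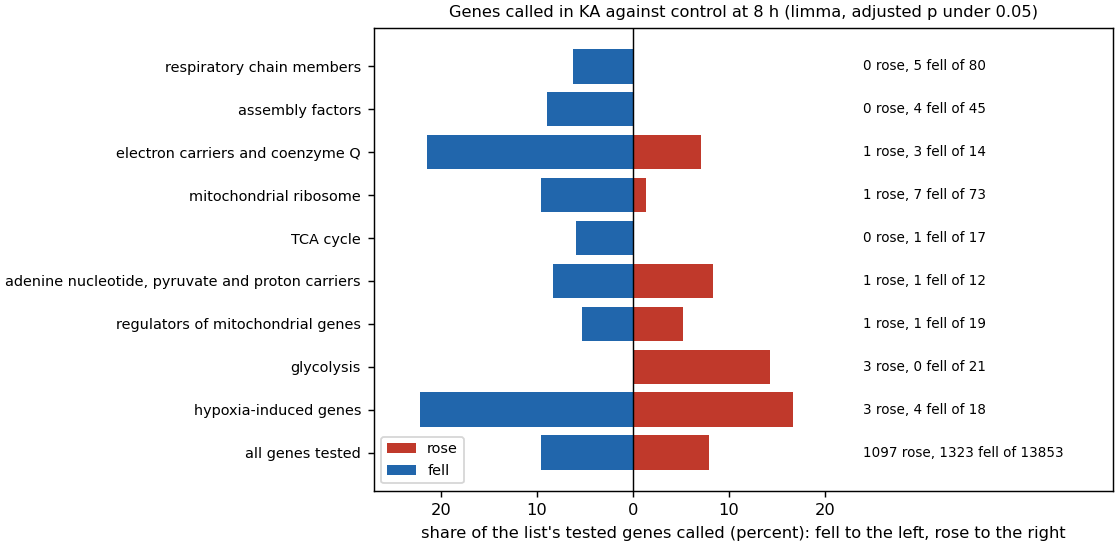
Share of the tested genes of each list that were called in KA against control at 8 h (percent; fell to the left, rose to the right), with the counts at the right edge. Members show 5 falls and 0 rises of 80, glycolysis 3 rises and 0 falls of 21, and all genes tested 1097 rises and 1323 falls of 13853.

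At 14 d few genes of these lists were called, where 2.56% of all genes tested were. Suclg2, a subunit of the GTP-forming succinate-CoA ligase, read 6.32, 6.25 and 6.18 in the controls and 6.57, 6.84 and 6.76 after KA (0.48 ± 0.09, adjusted p = 0.00667). Sqor, which passes electrons from sulfide to ubiquinone, read 5.43, 5.43 and 5.33 and 5.96, 5.85 and 5.89 (0.51 ± 0.11, adjusted p = 0.0201). Both rose, with every KA array above every control. Ndrg1 of the hypoxia list fell (-0.35, adjusted p = 0.0254). None of the 73 mitochondrial ribosome, 21 glycolysis, 19 regulator or 12 carrier genes was called at 14 d.

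Cell type markers moved beside the members. Among all genes tested 17.5% were called at 8 h, 9.55% as falls, and 2.56% were called at 14 d. Of all 13853 genes tested 1097 rose at 8 h and 275 at 14 d. At 8 h 3 of 12 neuron markers fell (Tubb3, Rbfox3 and Thy1) and 0 rose, with a median of -0.08 and a summed intensity of 15950 to 17010 in the controls and 15120 to 16780 after KA, which overlap. For parvalbumin interneurons 4 of 7 fell, and the sum was 1842 to 2008 in the controls and 1546 to 1734 after KA. Pvalb itself read 8.43, 8.50 and 8.37 and 7.84, 8.08 and 7.75 at 8 h (-0.55, adjusted p = 0.00354) and fell at 14 d as well (-0.71, adjusted p = 0.00204). For oligodendrocytes 4 of 9 fell at 8 h, with sums of 4429 to 5105 and 4164 to 4875, and for mural cells of the vessels 2 of 9 fell, with sums of 682 to 750.4 and 586 to 607. Other markers went the opposite way or both ways. Of 9 endothelial markers 4 rose and 1 fell, with sums of 668 to 696 in the controls and 867 to 951 after KA, and of 9 microglia markers 3 rose and 3 fell, with sums of 1199 to 1315 and 1428 to 1527. Dentate granule cells had 2 of 6 markers that rose and 3 that fell, pyramidal cells 2 and 1 of 9, and astrocytes 1 and 2 of 9, with astrocyte sums of 6179 to 6638 and 6039 to 6374. At 14 d 3 of 9 astrocyte markers rose, with sums of 6957 to 7366 in the controls and 7549 to 8852 after KA. There 8 of 9 microglia markers rose, with sums of 1476 to 1671 in the controls and 3935 to 4642 after KA. The part of these cell types in the members' differences was not tested.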

How the data were processed

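Expression was measured on 12 Affymetrix Mouse MG-430 PM arrays, 3 in each of 4 groups named by the sample titles. The authors deposited log2 intensities; the scale was read from the values, and the submitters' processing notes name RMA and affy without versions. Gene names came from the platform annotation, with 28689 of the 28898 probe sets with 1 symbol matched by gene identifier to the RefSeq table. A gene was tested if it passed the 30th percentile of its array on 3 or more arrays, as 13853 did. A fit with 4 group means over all arrays and 8 residual degrees of freedom was made in limma 3.58.1 (R 4.3.3) with eBayes, two-sided, with Benjamini-Hochberg adjustment over all genes tested. The number of arrays limits the precision. Alternatives changed the scaling, the filter, the probe set, the fit and the arrays included.

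Members, lists and motifs were chosen with earlier results of these data known. Named were all called members, the extreme members of each complex, a set of catalytic subunits and isoforms, the X-linked members, and up to 3 called genes of each list; Ndufs3, Ndufb8, Uqcrc2, Cox8c, Nrf1, Pet100, Gpd2 and the other genes named beyond this were picked once the values were known. The groups use common replicate numbers without a stated pairing. Same-numbered arrays deviated together at 8 h (correlations of 0.155, 0.138 and 0.413 over all genes). By a rule on the data alone (every pair over 0.1), the numbers were taken to pair the arrays there. At 14 d the correlations were 0.164, 0.0684 and 0.463 and did not meet this rule. The third arrays of all 4 groups, at both times, also deviated together (0.401 to 0.526). The 3 deviations of a group sum to 0, so a shift of the third arrays alone can give positive correlations for the other numbers. The correlations therefore cannot tell pairing from such a shift. Results are from the fit without the block; the fit with it spans all 12 arrays and both times.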

Additional observations from a re-analysis of the deposited data

How the results depend on the processing

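At 8 h the 5 called members became 0 at an adjusted p under 0.01, 10 under 0.10, 14 with array weights, 8 with a trended robust fit, 3 without the third arrays of the groups, and 1 to 7 when each array was left out in turn. With the replicate block 7 were called, the block adding Ndufs3 and Cox7a2l and changing no other call. Array weights also called 2 members at 14 d, 3 between the controls and 2 for the difference of the changes, each 0 in limma without weights; the cause was not tested. The median of the members moved to -0.0693 at 8 h and to 0.0005 at 14 d with cyclic loess, which aligns the arrays over their whole range of intensity. Leaving out each array in turn gave a median at 14 d from -0.1082 to 0.0086, and at 8 h from -0.1493 to -0.0885, still below 0. No called member changed sign in any of its 24 alternatives. Many of these cannot change the sign, because they leave the 8 h difference itself as it was. Examples are a 14 d array left out, another filter or the replicate block. The members' median was -0.1238 at 8 h and -0.057 at 14 d. Its SD between arrays of a group, pooled over the 4 groups, was 0.0662, and the 14 d KA arrays spread the most. There were 3 arrays a group, and 6 members averaged below 6. The part of either in the number of calls was not tested.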
